A study of Mus musculus with 2 samples.

Results

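Genes of the plasma cell program were read in sorted bone marrow (BM) stem and progenitor cells before and after BCR/ABL (BA) was switched on. The 10 members are Prdm1, Irf4, Xbp1, Pou2af1, Jchain, Mzb1, Derl3, Fkbp11, Sdc1 and Tnfrsf17, found by gene name among the 34745 genes of each table. They are genes known from plasma cells, and they were selected on the reads and FPKM of these same libraries, since several were already known to be low at week-3. Their levels are therefore given as a description, and no test was made on them. At week-3, 8 of the 10 genes were at least 2 times lower, 1 was at least 2 times higher and 1 was nearly level. Of the 13689 genes with at least 10 reads over both libraries, 17.9% were at least 2 times lower and 11.9% at least 2 times higher. The counts of every gene list below stand beside these shares. Xbp1 (nearly level) and Fkbp11 (higher) were the members that were not at least 2 times lower.

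The mice were Scl/tTA-BA double transgenics on the C57BL/6 background, in which the Scl-driven tetracycline transactivator turns on the BA transgene when doxycycline leaves the drinking water. Both groups carried the same transgenes. Lineage-negative, Sca1+ and c-Kit+ cells (LSKs) were sorted from BM at week-0, with doxycycline still given, and at week-3 after its withdrawal. Each time point is 1 RNA-seq library made from LSKs of 3 mice mixed together, so no spread between mice can be given and each ratio compares 2 libraries. The age of the mice was not given in the sources used here. The tables hold reads counted per gene and FPKM, in which reads are divided by exon length and by the library total. Reads on genes came to 6356164 for week-0 and to 3886695 for week-3, and 3 reads amount to 0.472 and 0.772 RPM (reads per 1000000 reads on genes), respectively. The sorting genes were present in both libraries, with an FPKM of 16.9 and 11.5 for Kit and of 19.8 and 14.8 for Ly6a, which encodes Sca1, at week-0 and week-3. Over 10 LSK markers, 4 were at least 2 times lower and 1 at least 2 times higher at week-3. Flt3 (log2 ratio -2.02) and Procr (-1.35) were among the lowest, and Kit (-0.55), Ly6a (-0.42) and Slamf1 (1.29) were highest.

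Plasma cells are the end stage of the B lineage and secrete antibody. Irf4 and Prdm1 (Blimp-1) establish the state, and Prdm1 silences the B cell genes. Xbp1 enlarges the endoplasmic reticulum (ER) and is a transcription factor of the unfolded protein response. BM is a main home of long-lived plasma cells. Stem and progenitor cells are not known to secrete antibody, but they do use Xbp1 and ER chaperones.

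Promoter windows (from 250 bases before to 50 bases after the RefSeq start site, GRCm38.p6) were at hand for 9 of the 10 genes, all except Mzb1, in 10 windows. They were searched on both strands for 6 motifs, of which the first 3 share the letters CCACG or their complement. The elements bound by Xbp1 or by its relative Atf6 were the UPRE (TGACGTGG), the ERSE (CCAAT, then 9 bases of any kind, then CCACG) and the ERSE-II (ATTGG, 1 base, CCACG). The others were the octamer of the Pou2af1 partners (ATGCAAAT), the composite site of Irf4 with Spi1 or Spib (GGAA, 2 bases, GAAA) and a Blimp-1 core (AGTGAAAG). Of 32851 windows of all genes, 0.676% held a UPRE, 0.119% an ERSE, 0.0365% an ERSE-II, 1.74% an octamer, 2.72% a composite site and 1.32% a Blimp-1 core. Among the members, Pou2af1 held a UPRE from 61 to 54 bases before its start site, and Derl3 held an ERSE on the opposite strand from 156 to 138 bases before its start site. The other searched letters were in no member window. The windows of Derl3 and Pou2af1 are shown because they carry the Xbp1-type elements and both genes were low at week-3 while Xbp1 was level. Fkbp11 has more than 1 window, and 1 of them is shown because this gene was high. None of its windows held an exact UPRE, ERSE or ERSE-II. Capitals mark the motif letters, and a match is a description of the sequence only.

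Derl3 (chr10:75893148-75893447, plus strand): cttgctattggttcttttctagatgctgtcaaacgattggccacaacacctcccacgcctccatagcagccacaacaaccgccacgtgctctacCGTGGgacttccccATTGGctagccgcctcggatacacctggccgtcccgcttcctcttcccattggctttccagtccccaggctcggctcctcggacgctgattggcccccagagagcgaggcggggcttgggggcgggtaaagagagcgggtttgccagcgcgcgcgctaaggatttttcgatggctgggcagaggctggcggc

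Pou2af1 (chr9:51213440-51213739, plus strand): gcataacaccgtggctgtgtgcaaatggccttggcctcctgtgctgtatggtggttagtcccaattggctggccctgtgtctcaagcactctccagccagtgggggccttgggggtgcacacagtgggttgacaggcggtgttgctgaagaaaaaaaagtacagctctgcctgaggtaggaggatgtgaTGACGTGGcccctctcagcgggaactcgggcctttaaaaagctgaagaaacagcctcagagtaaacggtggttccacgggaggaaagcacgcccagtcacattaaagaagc

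Fkbp11 (chr15:98728149-98728448, minus strand): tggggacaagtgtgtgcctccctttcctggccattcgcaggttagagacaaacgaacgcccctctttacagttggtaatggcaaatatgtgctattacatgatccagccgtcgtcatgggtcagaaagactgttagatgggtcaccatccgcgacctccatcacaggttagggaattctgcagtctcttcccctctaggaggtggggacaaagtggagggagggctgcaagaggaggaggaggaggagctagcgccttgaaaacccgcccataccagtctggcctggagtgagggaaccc

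Of the 4 transcription factors and coactivators, 3 were at least 2 times lower at week-3 and Xbp1 was nearly level. Prdm1 (ENSMUSG00000038151, chromosome 10 of GRCm38, from 44437177 to 44528501), the repressor of the B cell program, had 39 reads in the week-0 library (FPKM 0.775) and 1 read in the week-3 library (FPKM 0.0325). Scaled to the smaller library, the week-0 level would have given 23.8 reads at week-3. The FPKM was 23.8-fold lower (95% interval 4.04 to 966, an exact Clopper-Pearson interval on the reads that covers counting error only). Irf4 (ENSMUSG00000021356, chromosome 13, from 30749226 to 30766927), which acts upstream of Prdm1, had 42 reads in the week-0 library (FPKM 1.36) and 0 in the week-3 library. With its 0 reads set to a floor of 3 reads, Irf4 was 8.56-fold lower at week-3, where 25.7 reads would have been counted at the week-0 level. The 95% interval on its reads starts at 6.66-fold lower and has no upper end. Both factors were thus at the limit of detection at week-3, and in these bulk libraries fewer cells of a type cannot be told apart from less RNA per cell.

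Pou2af1 (ENSMUSG00000032053, chromosome 9, from 51213690 to 51240079), a coactivator of octamer-binding factors in B and plasma cells, had 22 reads at week-0 (FPKM 1.35) and 2 reads at week-3 (FPKM 0.201). This was 6.73-fold lower, with an interval from 1.65 to 59.0. Its partners differed from it. Pou2f1 (Oct-1) had a log2 ratio of -0.34 and Pou2f2 (Oct-2) of 2.11, with 91 and 241 reads and an FPKM of 1.36 and 5.91. Spi1 (Pu.1), a partner of Irf4, was level at 132 and 135 FPKM, and Spib had 3 reads in each library, too few for a ratio.

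Xbp1 (ENSMUSG00000020484, chromosome 11, from 5520659 to 5525893) was the most abundant factor of the group, with 1454 reads in the week-0 library (FPKM 50.8) and 837 in the week-3 library (FPKM 47.8). The week-0 level would have given 889 reads at week-3. Its log2 ratio was -0.09 (interval -0.21 to 0.04), close to the median of all genes, which was 0.05 over the 13689 genes with at least 10 reads over both libraries. Scaling by the trimmed mean of M-values (TMM) shifted all genes by -0.11 and put Xbp1 at -0.20. Gene-level reads do not separate spliced from unspliced Xbp1 RNA, so its activity was not measured. Among the genes with reads, Xbp1 was at percentiles 94.5 and 93.7 of FPKM, whereas Prdm1 went from percentile 36.1 to percentile 1.72.

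**Figure D1:**
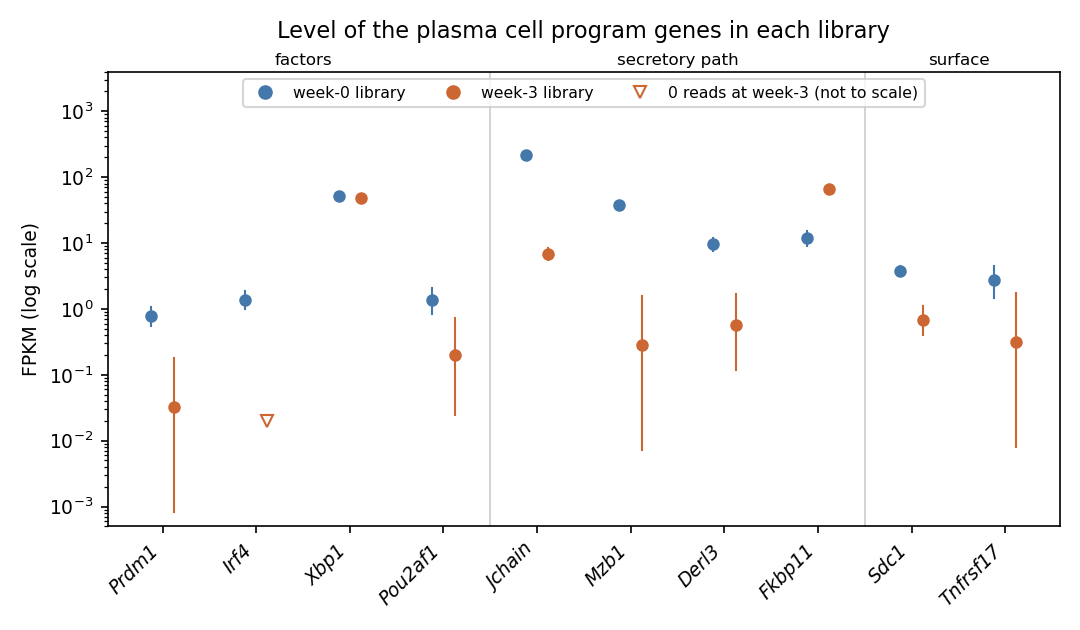
FPKM on a log scale of the 10 plasma cell program genes at week-0 (blue) and week-3 (orange), grouped by role, with bars for the exact Poisson 95% interval of the reads; the open triangle marks 0 reads and is not to scale. Xbp1 sits at 50.8 and 47.8, Fkbp11 is higher at week-3 and the other 8 genes are lower.

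In the secretory path, 3 genes were lower at week-3 and 1 was higher. Jchain (ENSMUSG00000067149, chromosome 5, from 88519809 to 88527891), the chain that joins IgM and IgA into polymers, had the highest level of the group at week-0, with 5120 reads (FPKM 221). This was percentile 98.8 of all genes with reads in LSKs. At week-3, Jchain had 96 reads (FPKM 6.76), 32.6-fold lower (interval 26.7 to 40.3), where its week-0 level would have given 3131 reads. It was still at percentile 72.1 there, so Jchain was reduced and not lost.

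Mzb1 (ENSMUSG00000024353, chromosome 18, from 35647266 to 35649367), an ER co-chaperone that helps assemble and secrete IgM, had 218 reads in the week-0 library (FPKM 37.9) and 1 read in the week-3 library (FPKM 0.284), against 133 reads for an unchanged level. The ratio was 133-fold lower, but with 1 read at week-3 its interval ran from 23.7 to 5289. Among the 13689 genes, Mzb1 had the 4th lowest ratio and Jchain the 40th lowest. Derl3 (ENSMUSG00000009092, chromosome 10, from 75893398 to 75895941), which carries misfolded proteins out of the ER for degradation and is found in secretory cells, had 82 reads (FPKM 9.66) at week-0 and 3 reads (FPKM 0.578) at week-3, 16.7-fold lower (interval 5.52 to 82.7). The sister derlins, which are used by most cells, did not share this. Derl1 had an FPKM of 37.3 and 46.0 (log2 ratio 0.30, interval 0.14 to 0.46), and Derl2 had 4.36 and 6.93 (0.67, interval 0.42 to 0.91). At week-0 the FPKM of Derl3 was thus above that of Derl2, and at week-3 it was below both sisters.

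Fkbp11 (ENSMUSG00000003355, chromosome 15, from 98724373 to 98728198), a peptidyl-prolyl isomerase of the ER that is abundant in antibody-secreting cells, went the other way. Its reads numbered 55 before induction (FPKM 11.8) and 185 after it (FPKM 65.1), where the week-0 level would have given 33.6 reads. Fkbp11 was 5.50-fold higher (interval 4.05 to 7.58) and had the 253rd highest ratio of all genes tested. Of the related ER FK506-binding proteins, Fkbp2 (log2 ratio 0.41, interval 0.21 to 0.61) and Fkbp9 (0.22, interval -0.35 to 0.78) were within 2 times, and Fkbp7 was lower, at -1.11 (interval -2.13 to -0.20). Fkbp10 and Fkbp14 had 0 reads at week-0 and 1 read each at week-3, too few for a ratio.

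Both surface genes were lower. Sdc1 (ENSMUSG00000020592, chromosome 12, from 8771323 to 8793715), which encodes CD138, the proteoglycan used to sort plasma cells, had 155 reads in the week-0 library (FPKM 3.79) and 17 in the week-3 library (FPKM 0.679). It was 5.58-fold lower (interval 3.37 to 9.82). Sdc1 was not alone among the syndecans, since Sdc4 had 603 and 36 reads (log2 ratio -3.36, interval -3.88 to -2.87). Sdc3 had 16 and 4 reads (-1.29), with an interval from -3.33 to 0.34 that holds no change. Sdc2 had 5 and 2 reads and was left out. Tnfrsf17 (BCMA, ENSMUSG00000022496, chromosome 16, from 11313812 to 11320074), the receptor through which APRIL keeps plasma cells alive, had 14 reads at week-0 (FPKM 2.70) and 1 read at week-3 (FPKM 0.316). It was 8.56-fold lower, with an interval from 1.30 to 362 that leaves the size of the change nearly unknown. Its sister receptors were both better covered. Tnfrsf13b (TACI) was level, with an FPKM of 9.42 and 10.1 (log2 ratio 0.10, interval -0.18 to 0.37), and Tnfrsf13c (BAFF receptor) had 3.93 and 1.89 (-1.06, interval -1.74 to -0.43). The ligands Tnfsf13 (APRIL) and Tnfsf13b (BAFF) had between 1 and 3 reads in each library.

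**Figure D2:**
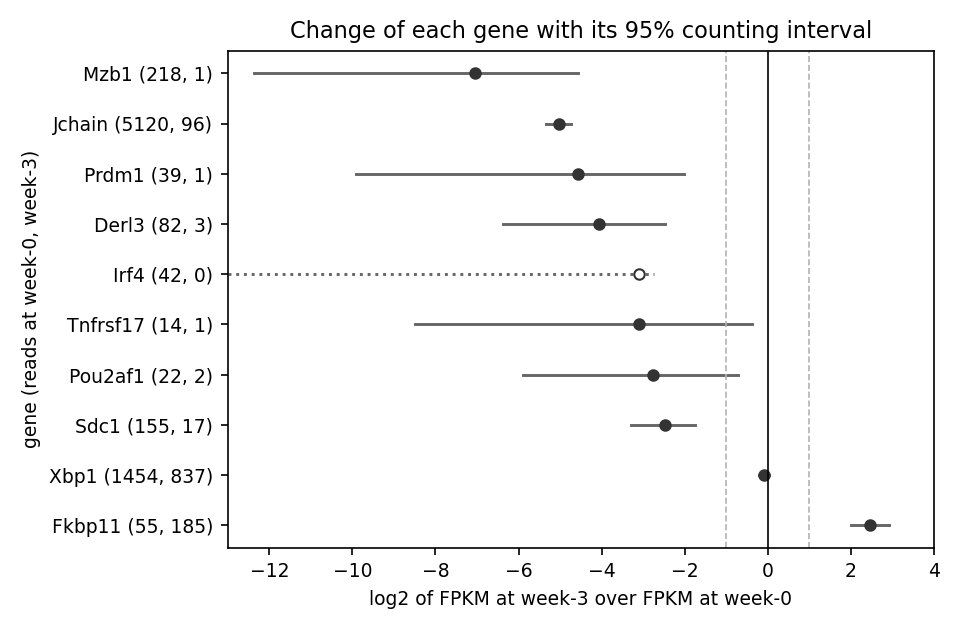
Log2 of the week-3 over the week-0 FPKM for each gene, with the reads of both libraries beside its name, 95% counting intervals as lines and the 2 times limits dashed; the open point of Irf4 is set at the floor of 3 reads and its dotted line has no lower end. The interval of Xbp1 holds 0, that of Fkbp11 lies above 2 and those of the other 8 genes lie below 0.

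All 10 genes had at least 10 reads over both libraries, but only 4 of them (Jchain, Xbp1, Sdc1 and Fkbp11) had at least 10 at week-3, so the rest were counted through week-0 alone. With that minimum, 8 of 10 members had an FPKM ratio of at most 0.5, where 17.9% of the 13689 genes did, and 1 of 10 had a ratio of at least 2, where 11.9% of all genes did. The members were chosen on this contrast, so nothing is read from these shares. With TMM or median-of-ratios scaling, the counts were again 8 and 1, which shifts of -0.11 and -0.09 in all genes could not have changed.

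The proportions among the 10 genes changed between the libraries. Together they had 7201 reads before induction and 1143 after it. Jchain made up 71.1% of these reads at week-0 (exact interval 70.0 to 72.1) and 8.40% at week-3 (6.86 to 10.2), whereas Xbp1 went from 20.2% to 73.2% and Fkbp11 from 0.764% to 16.2%. Without Jchain, the other 9 genes held 327 RPM at week-0 and 269 at week-3, of which most were Xbp1. Set against Jchain in the same library, Mzb1 had 4.26 reads per 100 Jchain reads at week-0 (interval 3.70 to 4.88) and 1.04 at week-3 (0.0261 to 5.94), and Derl3 had 1.60 (1.27 to 1.99) and 3.12 (0.633 to 9.41). For these genes the week-3 interval holds the week-0 value, so no change of their proportion to Jchain was detectable at this depth. Sdc1 had 3.03 per 100 Jchain reads before induction and 17.7 after it (9.91 to 29.9), Xbp1 28.4 and 872, and Fkbp11 1.07 and 193. These last genes were therefore higher relative to Jchain at week-3.

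**Figure D3:**
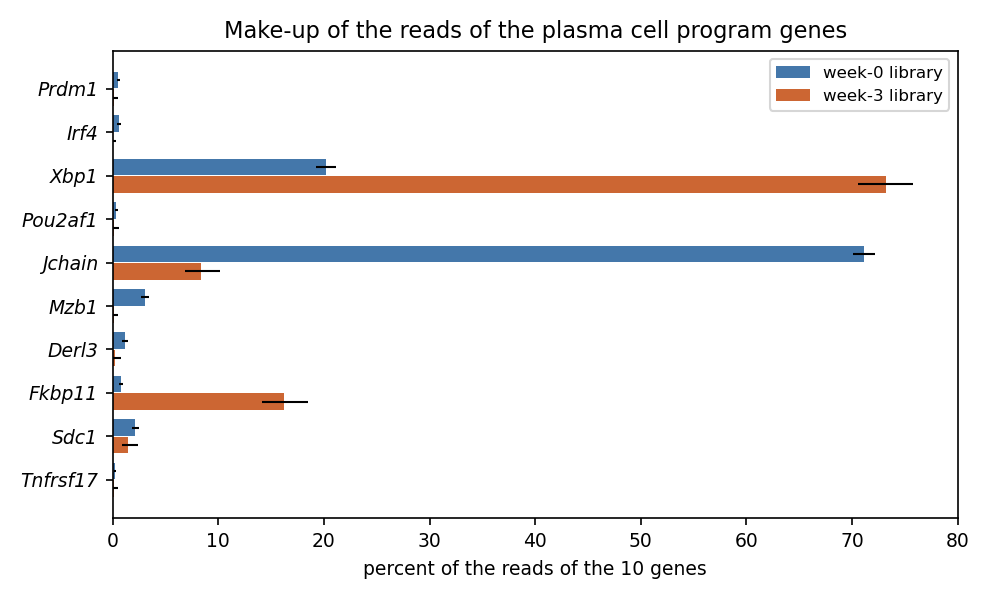
Percent of the reads of the 10 genes that each gene took in the week-0 (blue) and week-3 (orange) library, with exact 95% binomial intervals of the counting error. Jchain takes 71.1% of the reads before induction and 8.40% after it, and Xbp1 takes 20.2% and 73.2%.

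Other genes known from plasma cells gave a mixed picture. Of 15 such genes, 14 had at least 10 reads. Of these, 4 were at least 2 times lower, none was 2 times higher and 10 lay between, with a median log2 ratio of -0.80 against 0.05 for all genes. Cd28, a survival receptor of plasma cells and a T cell gene, had 167 and 3 reads (-5.09, interval -7.38 to -3.52), Fam46c, a poly(A) polymerase, had 177 and 9 (-3.59), Slamf7 had 37 and 2 (-3.50, interval -6.60 to -1.54) and Ell2, an elongation factor for secretory immunoglobulin mRNA, had 129 and 16 (-2.30). Those with the highest ratios were Sec11c, a subunit of the signal peptidase (0.38), the disulfide isomerase Txndc5 (0.22) and Creb3l2 (0.18). Bhlha15 (Mist1) had 11 and 4 reads, and Ccr10 had 2 in each library.

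Most of the general ER machinery did not follow the 8 low members. All 35 genes of ER folding, translocation and the unfolded protein response had at least 10 reads, and their median log2 ratio was 0.42. At least 2 times higher were 7 genes, led by Ssr1 (1.55), which belongs to the translocon, the chaperone cofactor Sdf2l1 (1.41) and Spcs3 of the signal peptidase (1.20), with Calr, Canx, P4hb and Pdia6 between 1.02 and 1.19. With TMM or median-of-ratios scaling, 5 genes were at least 2 times higher, as were 1365 and 1404 of the 13689 genes. At least 2 times lower were 5 genes, Ddit3 (Chop, -3.44), Dnajb9 (-1.60), Syvn1 (-1.48), Herpud1 (-1.23) and Atf4 (-1.17). The other 23 lay within 2 times. Of all 13689 genes, 17.9% were at least 2 times lower and 11.9% at least 2 times higher, so these counts are not read as a result. Hspa5 (BiP), the main ER chaperone, was at -0.44 with 8065 and 3625 reads, and Ern1, the kinase and nuclease that splices Xbp1, was at -0.82. By the deposited GO terms, chosen here after the values were seen, 4 of the 10 members (Mzb1, Xbp1, Derl3 and Fkbp11) belong to the ER, as do 4.08% of all genes of the tables. Of the 1026 ER genes with at least 10 reads, 12.7% were at least 2 times lower and 9.84% at least 2 times higher, with a median log2 ratio of 0.11.

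Antibody genes were low together with the plasma cell genes. Of 12 immunoglobulin constant regions, 11 had at least 10 reads, 10 were at least 2 times lower and 1 was higher, with a summed level of 9306 RPM at week-0 and 746 at week-3. Igkc had 28166 and 861 reads (log2 ratio -4.32) and Ighm had 22231 and 1573 (-3.11). Ighg2c, with 563 and 0 reads, was 115-fold lower with its 0 set to the floor of 3 reads. Its log2 ratio was then -6.84, with an interval that ends at -6.54 and has no lower end. Iglc1 (-4.58) and Iglc2 (-4.41) followed. Ighg1 was at -2.52, Ighd had 29 and 0 reads, Ighe had 0 in both, and Ighg3, with 3 and 15 reads, was higher (3.03, interval 1.21 to 5.46). Reads of near-identical constant regions may have been shared out between them. Relative to Jchain, Igkc went from 5.50 to 8.97 reads per Jchain read, Ighm from 4.34 to 16.4 and Igha from 0.998 to 3.39.

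Several markers of B cells were lower at week-3 too, and their part in the result was not tested. Of 14 pan-B cell markers, 11 had at least 10 reads and 8 of these were at least 2 times lower at week-3. All of the lower ones except Cd72 had fewer than 10 reads at week-3. With at least 50 reads over both libraries, 5 markers were left and 2 of these were lower, with a median log2 ratio of -0.315. The summed level was 487 RPM at week-0 and 360 at week-3, most of it from Cd37, which many leukocytes express. Cd79a, a chain of the B cell receptor, had 114 and 2 reads (-5.12, interval -8.19 to -3.24), Blnk had 37 and 1 (-4.50, interval -9.84 to -1.93) and Blk 11 and 1 (-2.75, interval -8.18 to 0.03), whereas Ralgps2 (-0.32), Cd37 (-0.23) and Cd79b (0.17) were closest to level. Cd22, Fcer2a and Fcrla were among those with no reads at week-3. The defining marker Ms4a1 had 9 and 2 reads (-1.46, interval -4.71 to 0.81). Per 100 Jchain reads, Cd79a had 2.23 before induction and 2.08 after it (interval 0.249 to 7.73). Of 8 pro-B and pre-B markers, 4 had at least 10 reads and 2 of these were lower, with a sum of 264 and 90.6 RPM. They were Il7r (-1.88) and Dntt (-1.58), while Igll1 was at -0.43 and Vpreb1 at -0.12. Rag1 and Vpreb2 were at 0 at week-3.

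Factors that hold B cells back from the plasma cell state, several of which Prdm1 represses in B cells, were lower or within 2 times. Of 10 such genes, 8 had at least 10 reads, 4 were at least 2 times lower and none was 2 times higher. Ebf1 (15 and 1 reads, -3.20, interval -8.59 to -0.50), Bcl6 (172 and 13 reads, -3.02) and Foxo1 (-1.95) were lowest, and Ets1 (-0.46), Mitf (0.12) and Irf8 (0.83) were highest. Pax5, the factor that defines B cells, had 5 and 2 reads.

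Plasmacytoid dendritic cells also express Jchain, Mzb1 and Derl3, so their markers were read. Of 13 markers, 12 had at least 10 reads and 9 were at least 2 times lower at week-3, with a sum of 645 and 343 RPM. With at least 50 reads over both libraries, 8 markers were left and 5 of these were lower. Ccr9 (59 and 3 reads, -3.59, interval -5.91 to -1.97), Ly6d (235 and 13 reads, -3.47) and Pacsin1 (10 and 1 reads, -2.61, interval -8.05 to 0.20) were lowest. Tcf4 (-0.44), Bst2 (-0.29) and Pld4 (0.18) were highest, and the defining marker Siglech had 21 and 3 reads (-2.10, interval -4.49 to -0.35). Klk1 and Upb1 were at 0 at week-3. The part of these cells in the result was not tested.

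Red cell and granulocyte markers, unrelated to plasma cells, differed between the libraries too. All 5 erythroid markers were at least 2 times lower, with a sum of 684 RPM at week-0 and 49.1 at week-3. Hba-a1 had 2036 and 32 reads (-5.28), Hbb-bt was at -3.36, Klf1 at -1.67 and Epor at -1.01. Per 100 Jchain reads, Hba-a1 had 39.8 before induction and 33.3 after it (interval 21.6 to 50.2). Of 6 granulocyte markers, 5 were at least 2 times higher, with a sum of 208 and 894 RPM. Ltf (2.69), Camp (2.31) and S100a9 (2.26) were highest, followed by Ngp (2.07), S100a8 (1.84) and Ly6g, which had 5 reads in each library. Lineage-positive cells had been depleted and gated out before sorting, and whether a few remained was not tested.

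**Figure D4:**
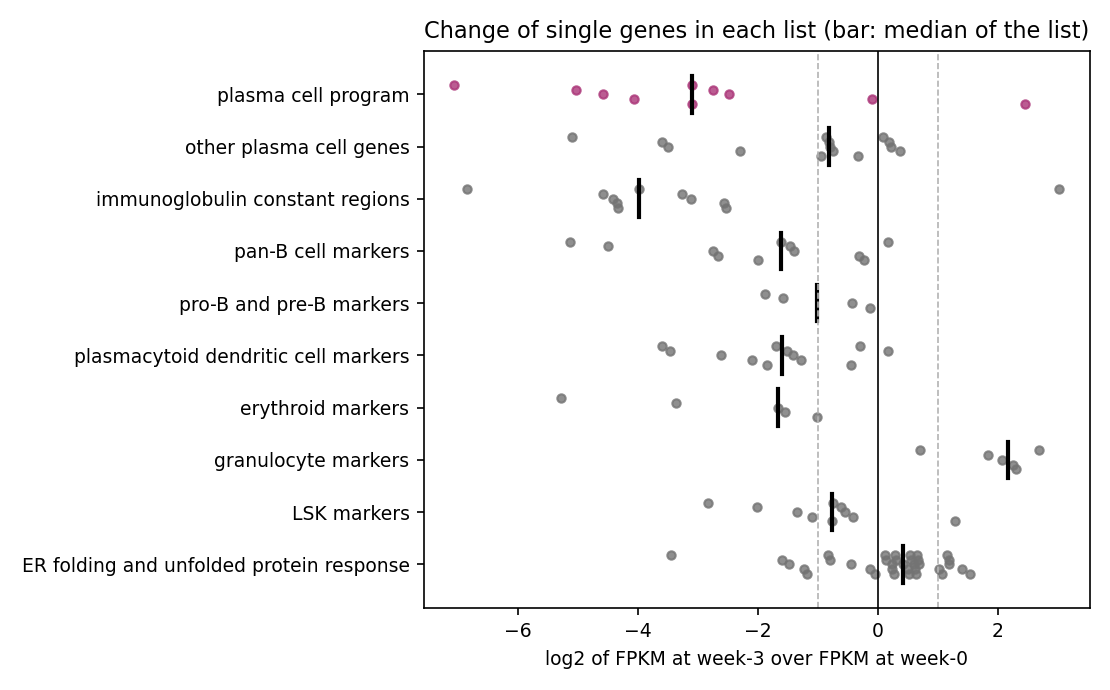
Log2 of the week-3 over the week-0 FPKM for each gene with at least 10 reads in 10 gene lists, with the median of each list as a bar and the 2 times limits dashed. The immunoglobulin constant regions have the lowest median (-3.98), the granulocyte markers the highest (2.17), and the ER genes lie around 0.42. The plasma cell program (-3.10) was selected on these same libraries, so its place among the lists is not a result. Its median rests on Irf4, set at the floor, and on Tnfrsf17, with 1 read at week-3.

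The genes outside these lists whose levels in the 2 libraries were nearest to those of Jchain were Cd74, Hba-a2, Tnfrsf12a, Sik1 and Ighv11-2. Nearness was the distance in log2(FPKM + 0.1) over the 2 libraries, and it ran from 0.23 for Cd74 to 0.82 for Ighv11-2. Cd74, the invariant chain of MHC class II, had 2505 and 47 reads and a log2 ratio of -5.03, the same as Jchain to 2 decimals. Hba-a2, an alpha globin, had 1556 and 23 reads (-5.37). Nearest to Xbp1 were Rps26-ps1, Surf4, Cfdp1, Rgs18 and Coro1b, at distances from 0.02 to 0.11. With 2 libraries, such nearness says only that the levels were alike.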

How the data were processed

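LSKs of 3 mice per time point were mixed, RNA was extracted, and cDNA was made with the SMARTer Ultra Low Input kit, a full-length method whose amplified reads are not independent molecules. After trimming, the authors aligned the reads to GRCm38 (mm10) with TopHat 2.0.9. The counting tool, its use of strand and the annotation release are not given in the sources used here. The authors deposited counts, which are whole reads per gene without normalization, and FPKM, in which the authors scaled them by exon length and total reads. The log2 ratio of FPKM and that of counts divided by totals differed by at most 0.000585 in any gene, so the reads on genes are the library total behind FPKM.

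From these, the ratio of week-3 to week-0 was computed per gene without a pseudocount. A gene at 0 in a library was set to 3 reads there, and no ratio was given where both libraries had at most 3 reads. A gene was called lower at a ratio of at most 0.5 and higher at a ratio of at least 2, among genes with at least 10 reads over both libraries. No p-value was computed, because 1 library per time point gives no spread between samples. Intervals at 95% are exact (Clopper-Pearson for shares and ratios, Poisson for reads) and cover counting error only. Those of the ratios were run on simulated counts drawn as independent reads, which is the assumption behind the intervals themselves. That run could not show whether they hold for amplified reads.

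Groups were taken from the time in the labels. The members and gene lists were chosen with earlier results of these data known. Every member is named, and in each list the genes with the 3 lowest and 3 highest ratios, those at 0 in both libraries, and the 5 genes nearest to Jchain and to Xbp1. Genes named beside these were chosen after their values were seen. Some genes of the lists are counted but not reported here by name. None of the 10 members overlapped another gene of the tables, 5 had identical coordinates in GENCODE M21, and there Mzb1 and Pou2af1 overlap another gene. Promoters are those of RefSeq on GRCm38.p6. Alternatives were TMM (edgeR 4.0.16) and median-of-ratios (DESeq2 1.42.0) scaling in R 4.3.3, other limits on reads and fold, pseudocounts of 0.1 and 1, and a call that also needs an interval without a ratio of 1. Other steps ran in Python 3.11.15 with scipy 1.17.1, numpy 2.4.6 and pandas 2.3.3, and plots in matplotlib 3.10.9.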

Additional observations from a re-analysis of the deposited data

How the results depend on the processing

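The 8 lower genes and the 1 higher gene of the plasma cell program were counted alike with the interval added to the call. They were also counted alike with TMM or median-of-ratios scaling, without a minimum of reads, and with limits of 1.5 and 0.67 times. These last settings could not have changed the counts. Scaling shifted all genes by -0.11 or -0.09, and the called members nearest the limit were Sdc1 (-2.48) and Fkbp11 (2.46). All 10 members already had at least 10 reads, and Xbp1 (-0.09) was far from the wider limits. With at least 50 reads over both libraries, 6 of the 10 genes were left, of which 4 were lower and 1 higher, since Prdm1, Irf4, Tnfrsf17 and Pou2af1 have fewer reads. Of 40 log2 ratios of single members under alternatives, 37 stayed within the counting interval of the main value, and none changed sign among the genes past 2 times. The exceptions were with log2(FPKM + 1), which gave -0.78 for Prdm1, -1.24 for Irf4 and -1.51 for Sdc1, as a pseudocount draws low genes toward 0. For members with few reads at week-3 the interval is wide, as for Mzb1 (-12.37 to -4.57), or has no lower end, as for Irf4. Staying within it says little for those genes. Over all genes, 2455 were lower and 1633 higher. With at least 50 reads these numbers were 1317 and 917, and with limits of 1.5 and 0.67 times they were 3692 and 3362. With at least 50 reads, the lower genes went from 8 to 2 for pan-B cell markers (4 with the interval), from 9 to 5 for plasmacytoid dendritic cell markers, from 4 to 2 for B cell factors and from 2 to 1 for pro-B and pre-B markers, as fewer genes were counted. With the wider fold limits, they went from 4 to 9 for the other plasma cell genes and from 4 to 7 for LSK markers, and the higher ER genes from 7 to 13. For T and NK cell markers, the lower genes went from 1 to 2 with TMM, median-of-ratios or the wider limits. The GO terms for the ER, chosen after seeing the data, each had a median of 0.11, below that of the 35 ER genes. Depth limits the size of the ratios of the 6 members with at most 3 reads at week-3. No paired analysis was possible because each time point has 1 library.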

Other observations

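Markers of other mature cells were read in the same way. Of 10 T and NK cell markers, 4 had at least 10 reads, and 1 was at least 2 times lower at week-3, Il2rb, the shared beta chain of the IL-2 and IL-15 receptors, with 68 and 3 reads (log2 ratio -3.79, interval -6.11 to -2.18). Lck was at -0.94, Klrb1c had 7 and 4 reads (-0.10) and Nkg7, a granule gene also found in progenitors, had 2839 and 2627 reads (0.60). The defining T cell gene Cd3e had 5 and 0 reads, and Cd8a had 3 and 0. The summed level was 511 RPM at week-0 and 704 at week-3, nearly all of it Nkg7.

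Of 6 macrophage markers, 2 had at least 10 reads, Vcam1 (-0.29) and Csf1r (0.92), and both were within 2 times. The sum was 24.1 RPM at week-0 and 38.1 at week-3. C1qa, C1qb and C1qc, complement genes of tissue macrophages, had between 5 and 6 reads at week-0, and C1qc had 0 at week-3.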
